A study of Mus musculus with 4 samples.

Results

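The 9 genes described here encode proteins that detect foreign or misplaced nucleic acid inside the cell, together with the adaptors directly below them. They are Ddx58 (RIG-I), Ifih1 (MDA5), Dhx58 (LGP2), Mavs, Mb21d1 (cGAS), Tmem173 (STING), Zbp1, Eif2ak2 (PKR) and Tlr3. They were chosen by gene symbol, with earlier results of these data known, from the 34745 genes of the deposited table. Each symbol was found once there. Mavs is an adaptor and Tmem173 receives a second messenger, while Tlr3 sits in endosomes and not in the cytosol, so "cytosolic sensors" fits the other members more closely.

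RNA was measured in bone marrow derived macrophages (BMMs) of 8-week-old male wild-type C57BL/6 mice. After 12 h without serum the cells spent 24 h with RANKL, the cytokine that turns macrophages into osteoclasts, at 100 ng/mL. Both groups received RANKL. The RANKL+DI group (2 libraries) also received dimethyl itaconate (DI), a membrane-permeable derivative of the macrophage metabolite itaconate, and the RANKL+Veh group (2 libraries) received vehicle, which the labels name as DMSO. The labels give the dose of DI as 20 mM and the methods as 20 μM. A group without RANKL was not analysed here, so a level here is always a level under RANKL. Nothing in the labels says that the libraries of a group came from separate mice or cultures, so p-values measure only the spread between these libraries, which may be technical.

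RIG-I and MDA5 are helicases that bind viral double-stranded RNA and pass the signal to MAVS on mitochondria. LGP2 is a related helicase without the signaling domains, which modulates the other two. cGAS binds DNA in the cytosol and makes cGAMP, which activates STING on the endoplasmic reticulum. Both routes end in the kinase TBK1 and the factor IRF3, and so in type I interferon, which in turn raises the genes of several of these sensors. ZBP1 binds Z-form nucleic acid and can start necroptosis, PKR halts translation by phosphorylating eIF2α, and TLR3 binds double-stranded RNA in endosomes and signals through TRIF.

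With DI, 5 of the 9 genes fell: Ddx58, Ifih1, Dhx58, Zbp1 and Eif2ak2. Each had an adjusted p under 0.05 in edgeR's quasi-likelihood test, adjusted by Benjamini-Hochberg over all 12590 genes tested. Among all tested genes, 7.70% fell by the same criterion and 14.8% changed in either direction. With all 4 libraries kept, the share that fell was 4.05% with DESeq2's Wald test. That share was counted over 18290 genes with any count, a wider set than that of the main test. In the other settings it lay between 5.59%, with the replicate number as a block, and 15.3%, with scaling by library size only. The 5 sensor genes passed under each of these. None of the 9 rose, where 7.14% of all tested genes did. The other 4 genes, Mavs, Mb21d1, Tmem173 and Tlr3, did not pass the test. The libraries of the 2 groups did not overlap for 7 of the 9 genes, all 7 being lower with DI (the 5 genes above with Mavs and Tlr3), where 29.6% of tested genes were lower without overlap. The log2 fold change was below 0 for 8 of the 9, against 49.8% of tested genes, and its median was -0.53, against 0.0012 over all tested genes. All 9 passed the filter on low counts, so no member is missing from these counts. Because the 9 were chosen with earlier results of these data known, the contrasts with all tested genes are a description only. In bulk samples, fewer cells that express a gene and less RNA per cell cannot be told apart.

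Macrophage genes were abundant in each library. Lyz2 had between 293651 and 445992 counts and Csf1r between 21381 and 25657. Osteoclast genes were present as well. Nfatc1, the factor that drives osteoclast differentiation, had between 1381 and 2010 counts and Ctsk between 537 and 893, while Calcr was at 0 and Oscar at 4 counts or fewer in all 4 libraries. Totals per library lay between 16085692 and 19403480 counts. CPM is a count relative to library size, with sizes scaled by TMM. A floor of 3 counts, which covers counting error only, is worth 0.160 to 0.180 CPM. The 95% intervals of fold changes come from edgeR's fit, which combines the spread between a gene's libraries with that of the other tested genes. The gene's own libraries give 2 degrees of freedom, and the total had a median of 5.95.

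Sequence near the start site is shown for Ddx58, Ifih1 and Eif2ak2, since these are the fallen genes with a RefSeq promoter window in the table used (GRCm38.p6, 250 bases before to 50 after the start). Of the 9 genes, 6 had a window. The ISRE core, a motif of interferon-stimulated genes, was searched on both strands as GAAA and GAAA with any 2 bases between them. It occurred once in each of the 3 windows of genes that fell and in none of the 3 windows of genes that did not pass the test (Mavs, Mb21d1 and Tlr3). The share of all 32851 windows holding it was 3.44%. The matches are in capitals, 5′ to 3′ on the strand of the gene:
Ddx58: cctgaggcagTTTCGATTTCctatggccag
Ifih1: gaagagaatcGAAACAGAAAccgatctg
Eif2ak2: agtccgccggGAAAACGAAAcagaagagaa

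All 3 matches lay just downstream of the annotated start. Counted from 1 at the start, they covered positions 3 to 12 in Ddx58 (stretch shown chr4:40239804-40239833, minus strand), 33 to 42 in Ifih1 (chr2:62646206-62646233, minus strand) and 19 to 28 in Eif2ak2 (chr17:78882535-78882564, minus strand). The match in Ddx58 reads on the strand opposite to the gene. A second motif, the GAS element, known from genes that respond to interferon-gamma, was searched as TTCNNNGAA, which is its own reverse complement. It was found in 8.30% of all windows and, among the 6 genes, only in that of Eif2ak2, 178 bases before the start (chr17:78882732-78882760, minus strand), where it did not overlap the ISRE core:
Eif2ak2: ctgcagagctTTCCCAGAAtggaagccag

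These matches describe letters in a window and are not measured binding sites. The same search was made in the other genes of the pathway lists used below. Of the 20 that fell and had a window, 10 held the ISRE core, against 5 of the 69 that did not pass the test and 0 of the 4 that rose. The lists were chosen with earlier results of these data known. The 10 also include related genes, such as Oas1a, Oas1g and Oas3, which are not independent. The contrast within the lists is therefore a description only. Over all tested genes with a window, the core was found in 8.13% of those that fell, 3.29% of those that rose and 3.53% of those that did not pass the test.

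Ddx58 (ENSMUSG00000040296, chromosome 4 from 40203773 to 40239828 on GRCm38) encodes RIG-I, which recognizes RNA with a 5′ triphosphate. It had 833 and 814 counts in the DI libraries, against 1681 and 1234 in those of vehicle, or 48.5 and 43.4 CPM against 90.2 and 74.1 CPM. Both DI libraries lay well below both vehicle libraries, and the vehicle libraries differed more from each other than the DI libraries did. On the log2 scale the change was -0.84 (standard error, SE, 0.11, edgeR's adjusted p = 0.00675), so that vehicle was 1.79-fold higher. It ranged from -0.97 to -0.69 when each library was left out in turn, and the test was passed each time.

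Ifih1 (ENSMUSG00000026896, chromosome 2 from 62595798 to 62646255) encodes MDA5, which binds long double-stranded RNA. Its libraries held 656 and 689 counts (DI) against 971 and 934 (vehicle), or 38.2 and 36.7 CPM against 52.1 and 56.1 CPM. The groups stood clear of each other, with a smaller gap than for Ddx58. DI over vehicle was, as log2 fold change, -0.53 (SE 0.070, edgeR's adjusted p = 0.00675).

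Dhx58 (ENSMUSG00000017830, chromosome 11 from 100694884 to 100704271) encodes LGP2. It had 309 and 330 counts in the DI libraries, against 660 and 680 in those of vehicle, or 18.0 and 17.6 CPM against 35.4 and 40.8 CPM. Each DI library was at about the same level, below both vehicle libraries. The log2 fold change of -1.10 (SE 0.095, edgeR's adjusted p = 0.00196) was the largest fall among the 3 receptors, and vehicle was 2.14-fold higher. An antisense gene, Dhx58os, overlaps 4.31% of its exons and had 2.75 counts per library on average.

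Mavs (ENSMUSG00000037523, chromosome 2 from 131234063 to 131248025) encodes the mitochondrial adaptor that RIG-I and MDA5 share. It had 846 and 977 counts in the DI libraries, against 1032 and 927 in those of vehicle, or 49.3 and 52.1 CPM against 55.4 and 55.7 CPM. The DI libraries were both lower, by little. The log2 fold change was -0.13 (SE 0.063, 95% interval -0.29 to 0.024, edgeR's adjusted p = 0.231). The interval did not reach the estimate for Ifih1, the smallest of the 3 receptors' changes.

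**Figure D1:**
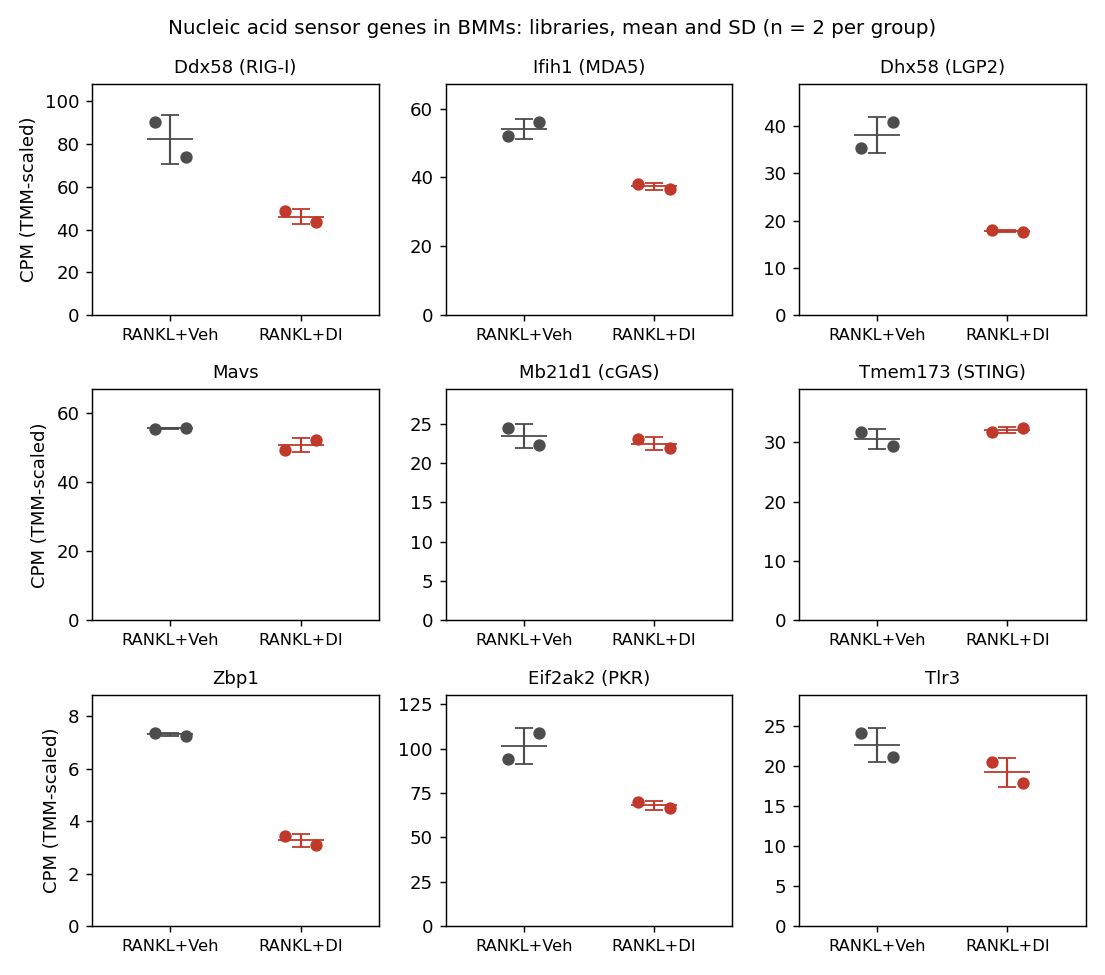
CPM on TMM-scaled library sizes (vertical axes, each from 0) for the 9 genes with vehicle (grey) and DI (red); points are libraries, bars the mean and SD of 2 libraries. Ddx58, Ifih1, Dhx58, Zbp1 and Eif2ak2 show a clear gap between the groups, while the groups of Mb21d1 and Tmem173 overlap.

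A ratio of 2 genes within 1 library does not depend on how the libraries are scaled. Relative to Mavs, the deposited FPKM (fragments scaled by gene length and library total) of Ddx58 was 0.511 and 0.432 with DI and 0.845 and 0.691 with vehicle. That of Dhx58 over Mavs was 0.473 and 0.437 with DI and 0.828 and 0.950 with vehicle. For Ifih1 over Mavs the ratio was 0.389 and 0.353 against 0.472 and 0.505. Summed over the 3 receptors, the ratio to Mavs was 1.30 ± 0.106 with DI and 2.15 ± 4.83e-04 with vehicle (SD, n = 2 each), 0.605 times the vehicle value. The groups did not overlap in any of these ratios, the DI libraries being lower in each. With 2 libraries against 2, an exact permutation test cannot give a two-sided p below 0.333, so the ratios were not tested.

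Between the receptors, ratios also shifted. Dhx58 over Ifih1 was 1.22 and 1.24 with DI against 1.76 and 1.88 with vehicle. Dhx58 over Ddx58 was 0.926 and 1.01 against 0.980 and 1.38, and Ddx58 over Ifih1 was 1.31 and 1.22 against 1.79 and 1.37. The groups overlapped for Dhx58 over Ddx58 and did not for the others, so the libraries did not resolve which of Dhx58 and Ddx58 fell more.

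Neither gene of the DNA route passed the test. Mb21d1 (ENSMUSG00000032344, chromosome 9 from 78430526 to 78443237) encodes cGAS and had 395 and 410 counts in the DI libraries, against 456 and 372 in those of vehicle. In CPM it stood at 23.0 and 21.9 against 24.5 and 22.3, and the groups overlapped. On the log2 scale the change was -0.062 (SE 0.090, 95% interval -0.28 to 0.16, edgeR's adjusted p = 0.699), and without vehicle replicate 1 it was 0.0058.

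Tmem173 (ENSMUSG00000024349, on chromosome 18) encodes STING. Its libraries had 545 and 609 counts in the DI libraries, against 592 and 489 in those of vehicle, or 31.8 and 32.5 CPM against 31.8 and 29.4 CPM. The groups overlapped here too. DI over vehicle was, as log2 fold change, 0.071 (SE 0.074, 95% interval -0.11 to 0.25, edgeR's adjusted p = 0.581), and it was -0.033 when libraries were scaled by size only. Neither 95% interval reached the smallest estimate among the 5 genes that fell, -0.53 for Ifih1. Mb21d1 over Tmem173 in FPKM was 0.187 and 0.174 with DI and 0.199 and 0.197 with vehicle, 0.913 times the vehicle value.

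Zbp1 (ENSMUSG00000027514, chromosome 2 from 173206612 to 173218923) was the least abundant of the 9. It had 59 and 58 counts in the DI libraries, against 137 and 121 in those of vehicle, or 3.44 and 3.09 CPM against 7.35 and 7.26 CPM. The groups were far apart for so low a count, and the replicates of each were close. The log2 fold change of -1.16 (SE 0.15, edgeR's adjusted p = 0.00641) was the largest of the 9, with vehicle 2.24-fold higher. Its 95% interval, -1.54 to -0.79, covers the values of Dhx58 and Ddx58.

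Eif2ak2 (ENSMUSG00000024079, chromosome 17 from 78852564 to 78882573) encodes PKR. It had 1202 and 1244 counts in the DI libraries, against 1754 and 1812 in those of vehicle, or 70.0 and 66.3 CPM against 94.2 and 109 CPM. The DI libraries were both below the lower vehicle library. The log2 fold change was -0.57 (SE 0.082, edgeR's adjusted p = 0.00851). The opposite-strand gene Gm26637 overlaps 3.40% of its exons and had 32.5 counts per library on average.

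Tlr3 (ENSMUSG00000031639, chromosome 8 from 45395665 to 45410608) had 352 and 337 counts in the DI libraries, against 450 and 352 in those of vehicle, or 20.5 and 18.0 CPM against 24.2 and 21.1 CPM. The higher DI library lay just under the lower vehicle library. On the log2 scale the change was -0.24 (SE 0.11, 95% interval -0.52 to 0.041, edgeR's adjusted p = 0.228), and it ranged from -0.33 to -0.14 with each library left out. A fall of up to about the size of that of Ifih1 is therefore not excluded for Tlr3 at this depth and number of libraries.

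**Figure D2:**
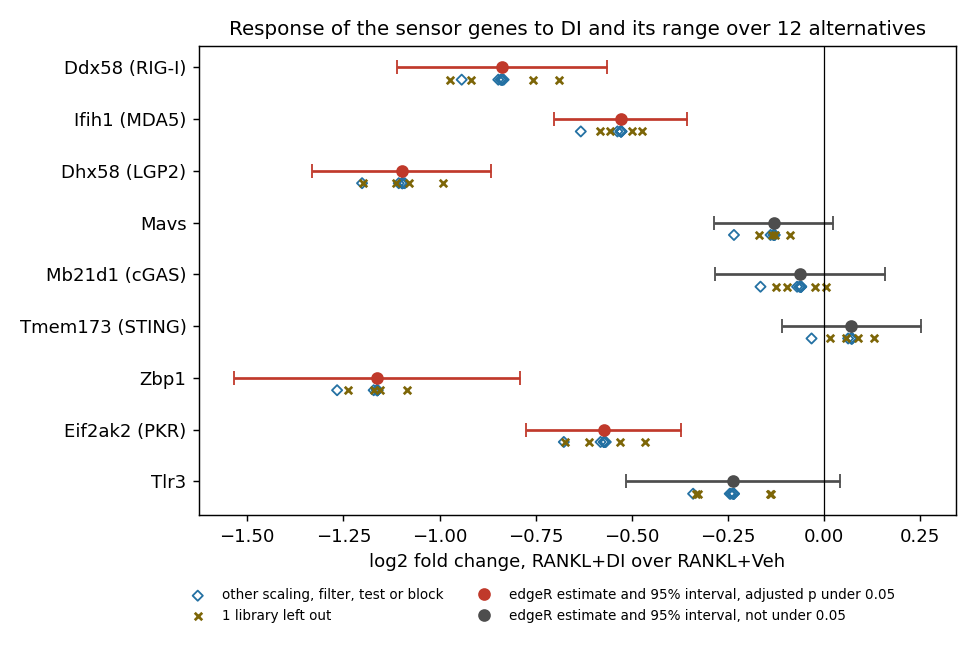
Log2 fold change of DI over vehicle (horizontal axis) for the 9 genes, as the edgeR estimate with its 95% interval (circles), and below it the value under 12 alternatives (diamonds for another scaling, filter, test or block, crosses for 1 library left out). The 5 genes in red stay between -1.27 and -0.46 throughout, and Mb21d1 and Tmem173 have values on both sides of 0.

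The calls were the same under the 12 alternatives tried for each gene: Ddx58, Ifih1, Dhx58, Zbp1 and Eif2ak2 passed in 12 of 12 and the other 4 genes in 0 of 12. The highest adjusted p among the 5 was 0.0361, for Zbp1, and the lowest among the other 4 was 0.0527, for Mavs.

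Levels between genes can be compared only per length. By the deposited FPKM with vehicle, Eif2ak2 was highest (17.9 ± 1.82, SD, n = 2 here and below) and Zbp1 lowest (1.57 ± 0.0143). Between them stood Tmem173 (13.8 ± 0.776), Mavs (10.2 ± 0.0286), Dhx58 (9.03 ± 0.899), Ddx58 (7.79 ± 1.09), Ifih1 (4.96 ± 0.254), Tlr3 (4.10 ± 0.389) and Mb21d1 (2.72 ± 0.178). Of these neighbors, only the libraries of Dhx58 and Ddx58 overlapped. With DI the order began with Tmem173 (13.5 ± 0.259) and Eif2ak2 (11.2 ± 0.392). Mavs followed at 8.63 ± 0.367. Ddx58 (4.06 ± 0.306) and Dhx58 (3.92 ± 0.0501) then overlapped, as did Tlr3 (3.25 ± 0.292) and Ifih1 (3.20 ± 0.0785). Below them were Mb21d1 (2.43 ± 0.0799) and Zbp1 (0.651 ± 0.0464). PKR transcripts were thus ahead of STING transcripts with vehicle and behind them with DI on this scale.

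This order depends on the gene length used. The length behind the FPKM values was between 0.840 and 2.16 times the union of exons in GENCODE M21, with Mb21d1 at the upper and Tmem173 at the lower end. With the exon union and TMM-scaled library sizes, an alternative added after the data were seen, Mavs led with DI at 15.2 ± 0.596 CPM per kilobase (SD, n = 2), followed by Eif2ak2 at 13.3 ± 0.510 and Tmem173 at 11.7 ± 0.188. With vehicle, Eif2ak2 led at 19.9 ± 2.02, then Mavs at 16.6 ± 0.0534. Zbp1 remained lowest on both scales. Fold changes of a gene between the groups do not involve its length.

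Partners of the sensors were taken from lists by role, written from general knowledge but with earlier results of these data known. Their counts are therefore a description only. For each list below, the share to set beside it is that of all tested genes, 14.8%, with 7.70% lower and 7.14% higher. Among cofactors of the RIG-I-like receptors, 1 of 8 tested genes (12.5%) passed, Ddx60, a helicase that promotes RIG-I signaling. It had 170 and 187 counts in the DI libraries, against 321 and 346 in those of vehicle, and a log2 fold change of -0.93 (SE 0.13, edgeR's adjusted p = 0.00730). The RIG-I ubiquitin ligase Trim25 could not be resolved, with 5176 and 2858 counts in the DI libraries against 2873 and 5352 in those of vehicle, which differ more within than between the groups. The median of the list was -0.042.

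Of 11 adaptors, kinases and IRFs below MAVS, STING and TLR3, 2 fell and none rose (18.2% passed, against 14.8% of all tested genes). Irf5, named after its value was seen, was at 0.67 and did not pass (edgeR's adjusted p = 0.0596). Both of its DI libraries lay above both vehicle libraries. With no filter on low counts, 3 of the 11 passed, 2 of them lower. Irf7, the interferon-inducible amplifier of type I interferon genes, had 216 and 278 counts in the DI libraries, against 605 and 498 in those of vehicle, and a log2 fold change of -1.18 (SE 0.11, edgeR's adjusted p = 0.00248). The adaptor Traf2 fell by 0.44 on the log2 scale (adjusted p = 0.0105 by edgeR), with an adjusted p of 0.0527 without vehicle replicate 1. Tbk1, the kinase common to these routes, was at -0.030 (adjusted p = 0.720) and its target Irf3 at -0.15 (adjusted p = 0.295, both by edgeR). The median of the list was -0.13.

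The interferon ligands themselves were not detected. Ifnb1, Ifna1, Ifna2, Ifna4, Ifna5, Ifne, Ifng, Ifnl2 and Ifnl3 were at 0 counts in all 4 libraries, which allows up to 3 counts or 0.160 to 0.180 CPM in each. Of 8 genes of the interferon receptor and the signaling steps below it, 3 fell and none rose, with a median of -0.16. The receptor genes Ifnar1 and Ifnar2 were at -0.0050 and -0.081 and did not pass.

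Some proteins of the OAS family make a second messenger when they bind double-stranded RNA. Of this family, 6 of 8 tested genes fell, with a median of -0.96. Oasl2, Oas1g, Oas1a and Oas3 had log2 fold changes of -1.38, -1.19, -0.71 and -0.96. The transcripts of Oas1a and Oas1g are up to 97.6% identical, so reads may have been split between them.

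For the AIM2-like receptors, a family of DNA-binding proteins, 7 of the 14 symbols of the list were in the table and 6 were tested. Ifi203, Mnda, Ifi204 and Mndal fell, by 1.15, 0.96, 0.67 and 0.77 on the log2 scale (adjusted p between 9.13e-04 and 0.00980 by edgeR). Mnda, Ifi204 and Mndal share near-identical stretches, up to 77.6% of a transcript, so their separate levels are uncertain. Aim2, the inflammasome receptor of the family, had 630 and 736 counts in the DI libraries, against 715 and 612 in those of vehicle and was at 0.016 (adjusted p = 0.912 by edgeR).

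In the endosomal arm to which Tlr3 belongs, 3 of 6 tested genes rose and none fell. Tlr9, the receptor for CpG DNA, was at -0.85 (edgeR's adjusted p = 0.110) and passed, as lower, with no filter on low counts (0.0374) and with the replicate block (0.0454). Tlr13, a receptor for bacterial ribosomal RNA, had 14821 and 16032 counts in the DI libraries, against 10907 and 9678 in those of vehicle, and a log2 fold change of 0.56 (SE 0.032, edgeR's adjusted p = 5.87e-04). Tlr8 rose by 0.34 and Ticam1, which encodes the TLR3 adaptor TRIF, by 0.41 (adjusted p = 0.0344 and 0.0376 by edgeR). Tlr13 passed with any 1 library left out. Tlr8 was lost without DI replicate 1, DI replicate 2 or vehicle replicate 1 (adjusted p = 0.0591, 0.0782 and 0.0926 by edgeR), and Ticam1 without any 1 of the 4 (between 0.0522 and 0.135) and with the replicate block (0.0765). Ticam1 also did not pass with DESeq2's Wald test (adjusted p = 0.0740). When libraries were scaled by size only, 1 of the 6 passed, Tlr13. Tlr3 over Ticam1 in FPKM was 0.413 and 0.332 with DI and 0.592 and 0.569 with vehicle, without overlap, 0.642 times the vehicle value.

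**Figure D3:**
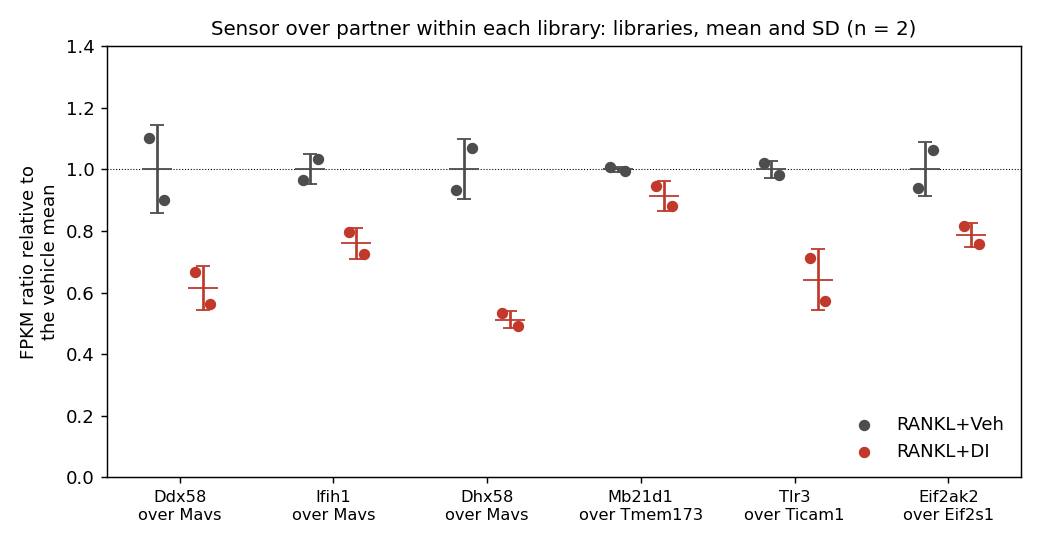
FPKM of a sensor over that of a partner within each library, divided by the mean of the vehicle libraries (vertical axis, from 0); points are libraries (grey vehicle, red DI), bars the mean and SD of 2 libraries. Dhx58 over Mavs is lowest with DI at 0.512 on average and Mb21d1 over Tmem173 is nearest to 1, at 0.913.

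Among enzymes that destroy or edit nucleic acid that the sensors would bind, 2 of 10 fell and 1 rose. The rise was not held throughout, and it was also lost in some fits with 1 library left out. DESeq2's Wald test and the replicate block each called 2, both lower, and scaling by library size only called 3, all lower. Adar, which edits double-stranded RNA, fell by 0.54 on the log2 scale (adjusted p = 0.00296 by edgeR). Trex1, which degrades cytosolic DNA, had 476 and 462 counts in the DI libraries, against 822 and 713 in those of vehicle, and a log2 fold change of -0.73 (SE 0.081, edgeR's adjusted p = 0.00386). The exons of Trex1 lie within those of Atrip, and 16.8% of those of Adar overlap Chrnb2 on the opposite strand, with 57.0 and 40.2 counts per library on average in these neighbors. Samhd1 was at -0.069 and did not pass.

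Below ZBP1, the kinase gene Ripk3 fell by 0.27 on the log2 scale (adjusted p = 0.0334 by edgeR) and the other 4 tested genes, Ripk1, Mlkl, Casp8 and Fadd, did not pass. The call for Ripk3 was lost with any 1 library left out, where its adjusted p lay between 0.0929 and 0.122. Around PKR, 1 of 9 genes passed, or 11.1%, against 14.8% of all tested genes. Eif2s1, the gene of PKR's substrate eIF2α, fell by 0.23 on the log2 scale (adjusted p = 0.0190 by edgeR). With any 1 library left out it did not pass (adjusted p between 0.0554 and 0.0885), and 27.8% of its transcript has a copy in each of 2 pseudogenes. The 3 other eIF2α kinases, Eif2ak1, Eif2ak3 and Eif2ak4, and the stress genes Atf4, Ddit3 and Ppp1r15a did not pass, with log2 fold changes between -0.027 and 0.14. Eif2ak2 over Eif2s1 in FPKM was 0.289 and 0.269 with DI and 0.333 and 0.377 with vehicle.

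**Figure D4:**
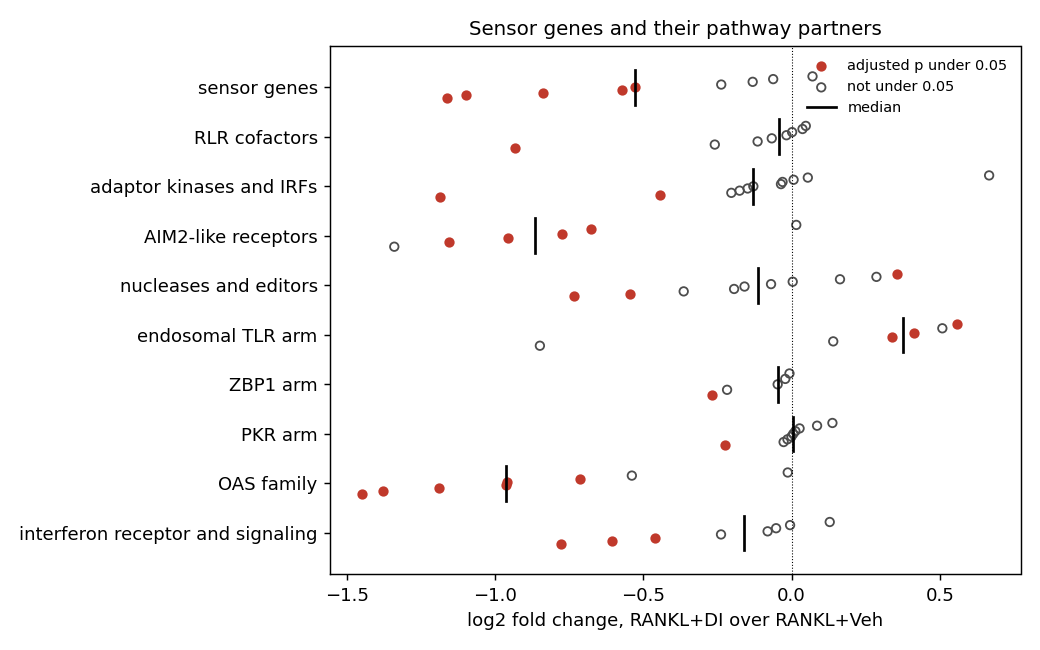
Log2 fold change of DI over vehicle (horizontal axis) for each tested gene of the sensor set and of 9 lists of partners (rows); filled red points passed an adjusted p of 0.05, open points did not, and black bars are medians. Medians lie near -0.96 for the OAS family and -0.86 for the AIM2-like receptors, and at 0.37 for the endosomal TLR arm.

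The KEGG assignments in the deposited annotation gave a wider view. Of the RIG-I-like receptor signaling pathway, 45 of 67 genes were tested. Outside the 5 members it holds, 6 of 40 tested genes fell and 1 rose, with a median of -0.041, and Cxcl10, Nfkbia and Irf7 had the smallest p. Of the cytosolic DNA-sensing pathway, 43 of 61 genes were tested, and outside its 5 members 6 of 38 fell and 1 rose, with a median of -0.059. The share that changed, members included, was 22.2% and 20.9%, against 14.8% of all tested genes. Members already reported as fallen lift both shares, so these are not additional to the result for the sensors. The riser was Ikbkg in both, named after its value was seen, at 0.45 (adjusted p = 0.0179 by edgeR), and it did not pass without vehicle replicate 2 (0.36, adjusted p = 0.0588 by edgeR). G6pdx, with 7740 counts per library, overlaps 5.15% of its exons on the opposite strand.

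Osteoclast markers fell with DI, as the sensors did, while most macrophage markers rose. Of 8 osteoclast markers, 5 of the 6 tested fell with DI, and their summed level was 169 to 181 CPM with DI and 297 to 311 CPM with vehicle. Of 7 macrophage markers, 5 rose and 1 fell, with sums of 28384 to 29194 CPM with DI and 22173 to 23037 CPM with vehicle. Lyz2 held most of these sums, and the median log2 fold change of the 7 was 0.18. The part of the shift in osteoclast and macrophage markers in the fall of the sensors was not tested. Plasmacytoid dendritic cells, known for their high output of interferon, were checked with 6 markers. Siglech, Ly6d and Klk1 were at 0 in all libraries, and the 6 summed to 0.427 to 0.524 CPM with DI and 1.02 to 1.08 CPM with vehicle. Markers of stromal, erythroid and mast cells, of basophils and neutrophils, and of B, T and NK cells were mostly too low to test, and none of the 8 tested passed. Their sums were at most 49.7 CPM in any library, the highest being stromal.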

How the data were processed

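BMM libraries were mRNA-seq, sequenced from both ends. For every gene and library, the authors deposited a read count without normalization and an FPKM value, which divides that count by gene length and library total. KEGG pathways came with a second deposited table. The submitters' processing notes name GRCm38 and mm10, and the aligner and counter are not given in the sources used here. All 9 genes lay on the same chromosome in GENCODE M21, 7 with the same start and end. Strand use in counting is not stated, so overlaps are given. No gene of the 9 had a copy elsewhere at 95% identity over 20% of its transcript (BLAST+ 2.17.0).

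Samples were grouped by title. Libraries of a group differed by more than sampling noise (chi-square per degree of freedom 6.20 and 6.32). The tests were run with edgeR 4.0.16 in R 4.3.3 (TMM, default filter on low counts, quasi-likelihood fit on condition, Benjamini-Hochberg adjustment over 12590 genes). Standard errors came from the fold change and the F statistic. Alternatives used other size factors, other filters, DESeq2 1.42.0, limma-voom (limma 3.58.1), the replicate number as a block and each library left out. The steps were tested on simulated data. The paper names no test for RNA-sequencing. The members and lists were chosen with earlier results of these data known. Named genes were the 9, then up to 4 per list with an adjusted p under 0.05, smallest p first. Genes named without passing were chosen for their role, except where the text says that their values were seen first. Promoter windows were taken from RefSeq (GRCm38.p6). Results of some genes that the rule includes are not reported here.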

Additional observations from a re-analysis of the deposited data

How the results depend on the processing

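Each of 25 results was recomputed under 12 alternatives. Under all of them, 16 kept their direction and their side of the threshold, or their count within 1.5 times. The counts of sensor genes that fell (5) and rose (0) were among the 16, and these counts repeat the calls of the single genes. Also among the 16 was the count for the interferon ligands, of which no gene was tested, so that it could not change. Under 2 scalings, a change of sign or of count was seen: by library size only, which moved the median of all tested genes to -0.10, Tmem173 was at -0.033, and 2 RIG-I-like receptor cofactors, 4 adaptors, kinases and IRFs, 5 genes of the interferon receptor and its signaling and 1 of the endosomal TLR arm passed. That scaling called 2480 genes, 1932 of them lower, against 1868 and 969 with TMM. Upper quartile factors gave 2 cofactors. So did no filter, at least 10 counts in every library and DESeq2's Wald test, and no filter gave 5 endosomal genes, 1 of them lower. The ZBP1 arm had 0 with DESeq2's test and 0 with the replicate block. With each library left out, the number of genes called was 1087 to 1394, with 1 to 2 cofactors, 1 to 3 adaptors, kinases and IRFs, 1 to 3 endosomal genes, and 0 genes of the ZBP1 arm and 0 of the PKR arm throughout, while Mb21d1 ranged from -0.12 to 0.0058. The causes were not tested. With the replicate block, 1389 genes were called and 5 of the 9 sensors. Libraries with the same number did not deviate together (correlation of deviations -0.030 over 12590 genes). A single correlation cannot show whether they share a mouse or culture, which the labels do not say. The block changed none of the 9 calls. Depth was lowest for Zbp1 among the 9, with 58 to 137 counts per library.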

Other observations

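The mean profile of the 5 sensor genes that fell, as log2 CPM centred over the 4 libraries, was -0.37 and -0.46 with DI and 0.39 and 0.44 with vehicle. Of 10999 other tested genes with an average log2 CPM over 1, Mybl2 had the most similar profile, at a Euclidean distance of 0.017, followed by Dnm1 and Cep85, both at 0.025. These 3 genes had log2 fold changes of -0.84, -0.88 and -0.81.

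Trim25 and Mapk14, both of the RIG-I-like receptor pathway of KEGG and singled out after their values were seen, were split across the groups. Trim25 had 5176 counts in DI replicate 1 and 5352 in vehicle replicate 2, against 2858 in DI replicate 2 and 2873 in vehicle replicate 1. Mapk14 had 3443 and 3092 counts in the former pair and 1559 and 1542 in the latter.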
